A study of Mus musculus with 2 samples.

Results

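Hox genes encode homeodomain transcription factors that give cells of the body axis a positional address. The 31 genes described here were chosen by symbol alone, as every gene in the deposited tables whose full symbol is Hoxa, Hoxb, Hoxc or Hoxd followed by digits, of 17189 genes in all. The injured library lists 30 of them, all but Hoxd10, and the uninjured library lists 28. Of the 39 Hox genes in the mouse GENCODE M21 annotation of GRCm38, the other 8 (Hoxa11, Hoxa13, Hoxc11, Hoxc12, Hoxc13, Hoxd11, Hoxd12 and Hoxd13) were not analysed here.

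The study asked how a subset of ependymal cells, named EpA, found along the central canal of the cord, respond to a cut through the dorsal funiculus. It compared 1 library from injured cord, taken 3 days after the cut, with 1 library from uninjured cord. All animals of both groups were C57BL/6J mice, at least 12 weeks old, with the alleles Troy-CreERT2+/- and Rosa26-tdTomato. The Troy gene (Tnfrsf19) drives a recombinase that needs tamoxifen, and only tdTomato-positive cells were sorted. The sort is meant to select cells in which the reporter had recombined, or their descendants. Whether it had recombined in every sorted cell was not tested. Tissue came from segments of 5 mm at the lesion or at the matching level of intact cord. The number of animals behind each library is not given in the sources used here.

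Hox genes lie in 4 clusters, and in each the genes at the 3′ end are used nearest the head while those at the 5′ end are used towards the tail. Genes with the same number in different clusters are paralogues, copies of 1 ancestral gene. In the developing cord the low numbers reach up into the hindbrain, the middle numbers mark neck and chest levels, and the highest numbers mark the lumbar, sacral and tail levels, and adult cells often keep part of this code. HOX proteins bind DNA together with PBX and MEIS cofactors, Trithorax proteins keep Hox genes on and Polycomb proteins keep them off.

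On GRCm38 the Hoxa cluster lies on the minus strand of chromosome 6. The listed genes of the other clusters are on the plus strand, Hoxb at chr11:96194316-96368256, Hoxc at chr15:102966796-103036852 and Hoxd at chr2:74691924-74765142. The annotated spans of 11 of the 31 genes overlap another of the 31 on the same strand, since long transcripts of Hoxa3, Hoxc5 and Hoxd3 run across their neighbours. An antisense gene overlaps 13 of the 31, and the strand setting of the counting is not given in the sources used here. For Hoxa3, Hoxa4, Hoxa5, Hoxa6, Hoxc5, Hoxc6, Hoxc8, Hoxc9, Hoxc10, Hoxd3 and Hoxd4, and through antisense genes for Hoxa7, Hoxb2, Hoxb3, Hoxb5, Hoxb6 and Hoxd8, the gene a read came from is therefore uncertain.

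RefSeq promoter windows (GRCm38.p6, 250 bases before to 50 after a start) were matched for 17 of the 31 genes. The windows below are shown because Hoxa7 and Hoxb8 are among the highest Hox genes of EpA cells in both libraries, Hoxa9 is higher in injured EpA cells and Hoxc4 is lower. Capitals mark matches on either strand to TATAAA (the TATA box), to GGGCGG (the GC box) and to CCAAT (bound by NF-Y). Also marked are TTTATG (a site of the caudal factors, CDX) and AGGTCA (only a part of a retinoic acid receptor element). The last string marked is TGATTNAT (a joint site of PBX and HOX proteins). They lie at chr6:52218524-52218823 (Hoxa7, minus strand), chr6:52227321-52227620 (Hoxa9, minus strand), chr11:96281655-96281954 (Hoxb8, plus strand) and chr15:103034145-103034444 (Hoxc4, plus strand), each 5′ to 3′.
Hoxa7: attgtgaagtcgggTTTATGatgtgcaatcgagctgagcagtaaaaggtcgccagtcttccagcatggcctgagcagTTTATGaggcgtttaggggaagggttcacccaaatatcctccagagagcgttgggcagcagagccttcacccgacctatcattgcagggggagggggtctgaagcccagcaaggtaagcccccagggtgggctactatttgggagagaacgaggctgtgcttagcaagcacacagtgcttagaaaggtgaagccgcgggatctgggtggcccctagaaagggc
Hoxa9: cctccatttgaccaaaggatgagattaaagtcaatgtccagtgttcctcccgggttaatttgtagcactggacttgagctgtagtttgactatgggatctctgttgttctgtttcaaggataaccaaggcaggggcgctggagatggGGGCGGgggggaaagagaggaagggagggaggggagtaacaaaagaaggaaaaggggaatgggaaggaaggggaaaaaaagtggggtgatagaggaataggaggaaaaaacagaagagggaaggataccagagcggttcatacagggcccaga
Hoxb8: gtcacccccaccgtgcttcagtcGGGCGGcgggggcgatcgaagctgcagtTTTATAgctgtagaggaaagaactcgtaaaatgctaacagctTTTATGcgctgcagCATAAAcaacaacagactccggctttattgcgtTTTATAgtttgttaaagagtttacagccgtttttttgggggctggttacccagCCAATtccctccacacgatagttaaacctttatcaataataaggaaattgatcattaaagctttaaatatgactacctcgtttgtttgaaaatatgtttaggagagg
Hoxc4: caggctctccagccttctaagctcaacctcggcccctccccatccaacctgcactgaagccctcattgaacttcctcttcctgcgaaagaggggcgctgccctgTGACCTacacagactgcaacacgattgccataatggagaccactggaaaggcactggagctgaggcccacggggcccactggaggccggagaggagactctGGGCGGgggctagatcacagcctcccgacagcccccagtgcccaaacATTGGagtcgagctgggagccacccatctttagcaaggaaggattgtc
TTTATG occurs 2 times in the Hoxa7 window and 2 times in the Hoxb8 window. It was not found in those of Hoxa9 and Hoxc4. Among the 17 Hox genes with a window it is in 4, and 11.9% of all 32851 RefSeq windows hold it. CCAAT is in 12 of the 17 against 37.4% of all windows, AGGTCA in 7 against 16.3%, GGGCGG in 7 against 35.7%, TATAAA in 3 against 13.6% and TGATTNAT in 1 against 3.22%. No marked matches overlap in these 4 windows. A match is a string of letters and not a shown binding site.

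The clusters also hold microRNA genes, whose products were not measured here. Mature forms are printed with the seed (bases 2 to 8) in capitals, because the Hox genes that are highest in EpA cells include several with matches to 1 of them.
miR-196a-5p: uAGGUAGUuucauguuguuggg
miR-196b-5p: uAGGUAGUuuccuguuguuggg
miR-10a-5p: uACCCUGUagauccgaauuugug
miR-10b-5p: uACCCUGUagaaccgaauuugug
The miR-196 pair shares 1 seed and the miR-10 pair another. On GRCm38, miR-196a-5p lies at chr11:96265187-96265208 in the Hoxb cluster and at chr15:102973365-102973386 in the Hoxc cluster, miR-196b-5p at chr6:52230129-52230150 in the Hoxa cluster, miR-10a-5p at chr11:96317186-96317208 and miR-10b-5p at chr2:74726074-74726096 in the Hoxd cluster. The match to the miR-196 seed, ACTACCT, is in the longest annotated 3′ UTR of 9 of the 31 Hox genes, against 6.10% of 21020 protein-coding genes. They include Hoxa4, Hoxa5, Hoxa7, Hoxa9, Hoxb1, Hoxb6, Hoxb7 and Hoxc8, and Hoxa7 holds 4 such matches. The match to the miR-10 seed, ACAGGGT, is in 4 of the 31, Hoxa3, Hoxb3 and Hoxd1 among them, against 12.5% of genes. The stretches below show 1 miR-196 match for each of 4 genes that recur in the results, in the transcript's DNA letters with the match in capitals, at chr6:52215400-52215421 (Hoxa7), chr6:52223900-52223921 (Hoxa9), chr11:96289784-96289805 (Hoxb7) and chr15:102992976-102992997 (Hoxc8).
Hoxa7: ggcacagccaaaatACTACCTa
Hoxa9: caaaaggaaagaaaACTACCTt
Hoxb7: ctgtaaaaaaatatACTACCTa
Hoxc8: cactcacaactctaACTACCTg

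The values are counts of unique molecular identifiers (UMIs), each standing for 1 captured RNA molecule. They were summed over the cells of a set and are given as CPM, the UMIs of a gene for every 1000000 UMIs of that set. The authors' EpA set has 1004 injured cells with 25296289 UMIs and 555 uninjured cells with 7689179 UMIs. Their other kept cells, called outside EpA below, number 224 injured cells with 6969678 UMIs and 156 uninjured cells with 1281715 UMIs. Median UMIs per EpA cell were 20158.5 in the injured and 11387 in the uninjured library, and the median mitochondrial share was 6.76% and 11.2%. With cells thinned to 2000 UMIs, or with cells of high mitochondrial share left out, the counts of higher and lower Hox genes between injured and uninjured EpA cells stayed within 1.5 times. With 1 library per condition there is no replicate check and no test, and brackets hold 95% intervals for counting error alone, which leave out variation between animals and cells. All 8 ependymal markers were found in EpA cells of both libraries, with a summed level of 2009 CPM in injured and 7730 CPM in uninjured EpA cells. The difference in these markers moves with each injured to uninjured comparison below, so values by EpA cluster and by cilium content are given for the genes called in it. Of markers of 11 other cell types, summed levels in injured and uninjured EpA cells were highest for neurons (1021 and 894 CPM), astrocytes (508 and 579 CPM) and oligodendrocytes (131 and 151 CPM, with Mog at 0 in both). Markers of oligodendrocyte progenitors summed to 32.8 CPM in injured and 0.650 CPM in uninjured EpA cells, with Sox10 and Gpr17 at 0 in both, and mural markers to 11 and 0.780 CPM, with Higd1b at 0 in both. These also move with each injured to uninjured comparison, and their part in the results was not tested. The other 6 lists stayed at 58.4 CPM or less, with Cd3e, Cd3d and Trac of T cells at 0 in both. The libraries share 18 barcodes. Without the cells that carry them, 1001 injured and 551 uninjured EpA cells remain, with 210 injured and 143 uninjured cells outside EpA, and every count of higher and lower Hox genes in the 3 main comparisons below stays as given.

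In both libraries the EpA cells carried the Hox code of the trunk. All Hox genes together made up 1348 CPM (1334 to 1362) in injured EpA cells and 1338 CPM (1312 to 1364) in uninjured EpA cells. Paralogue groups 7, 8 and 9 gave most of it, with 27%, 20.5% and 22.8% of Hox UMIs in injured EpA cells, and 25.6%, 27.4% and 12.2% in uninjured EpA cells. Above group 9 the level dropped away. Group 10 had 18.7 CPM (17.1 to 20.5) in injured and 18.6 CPM (15.7 to 21.9) in uninjured EpA cells. Hoxb13, the only listed gene of group 13, which marks the tail end of the axis, had 0.395 CPM (0.190 to 0.727) and 1.43 CPM (0.714 to 2.56). At the other end, the group 1 genes Hoxb1 and Hoxd1 had 8 and 6 UMIs in injured EpA cells and 0 in uninjured EpA cells, where a count of 0 limits each level to 0.390 CPM. In this 3′ assay a UMI counts a transcript and not its length, but genes can differ in how well they are captured, so orders between genes are of captured UMIs.

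Hoxa7, a thoracic-level gene, was the highest Hox gene of EpA cells in both libraries, with 274 CPM (268 to 281) in injured and 230 CPM (220 to 241) in uninjured EpA cells. In injured EpA cells Hoxa9 (156 CPM), Hoxb8 (130 CPM), Hoxc8 (112 CPM), Hoxc9 (95.8 CPM), Hoxb7 (90.3 CPM), Hoxb2 (81.1 CPM), Hoxc6 (78.9 CPM), Hoxb9 (50.9 CPM) and Hoxa5 (36.3 CPM) followed. In this order the intervals of Hoxc9 and Hoxb7 overlap, as do those of Hoxb2 and Hoxc6, while those of the first 5 genes do not overlap each other. In uninjured EpA cells the order after Hoxa7 was Hoxc8 (157 CPM), Hoxb8 (149 CPM), Hoxb7 (112 CPM), Hoxc6 (109 CPM), Hoxc9 (73.5 CPM), Hoxa9 (65.9 CPM), Hoxb2 (63.3 CPM), Hoxd8 (60.6 CPM) and Hoxc4 (48.1 CPM). There the intervals of Hoxc8 and Hoxb8 overlap, as do those of Hoxb7 and Hoxc6, and those of neighbours from Hoxc9 to Hoxd8. Of the 10 highest genes, 8 were shared by the libraries, and Hoxa5, the lowest of the injured 10, stood level with Hoxb4 (36.2 CPM). Across all 31 genes the Spearman rank correlation between injured and uninjured EpA cells was 0.95, given as a description, since a gene's captured level recurs in any pair of cell sets (0.90 between the cells outside EpA).

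**Figure D1:**
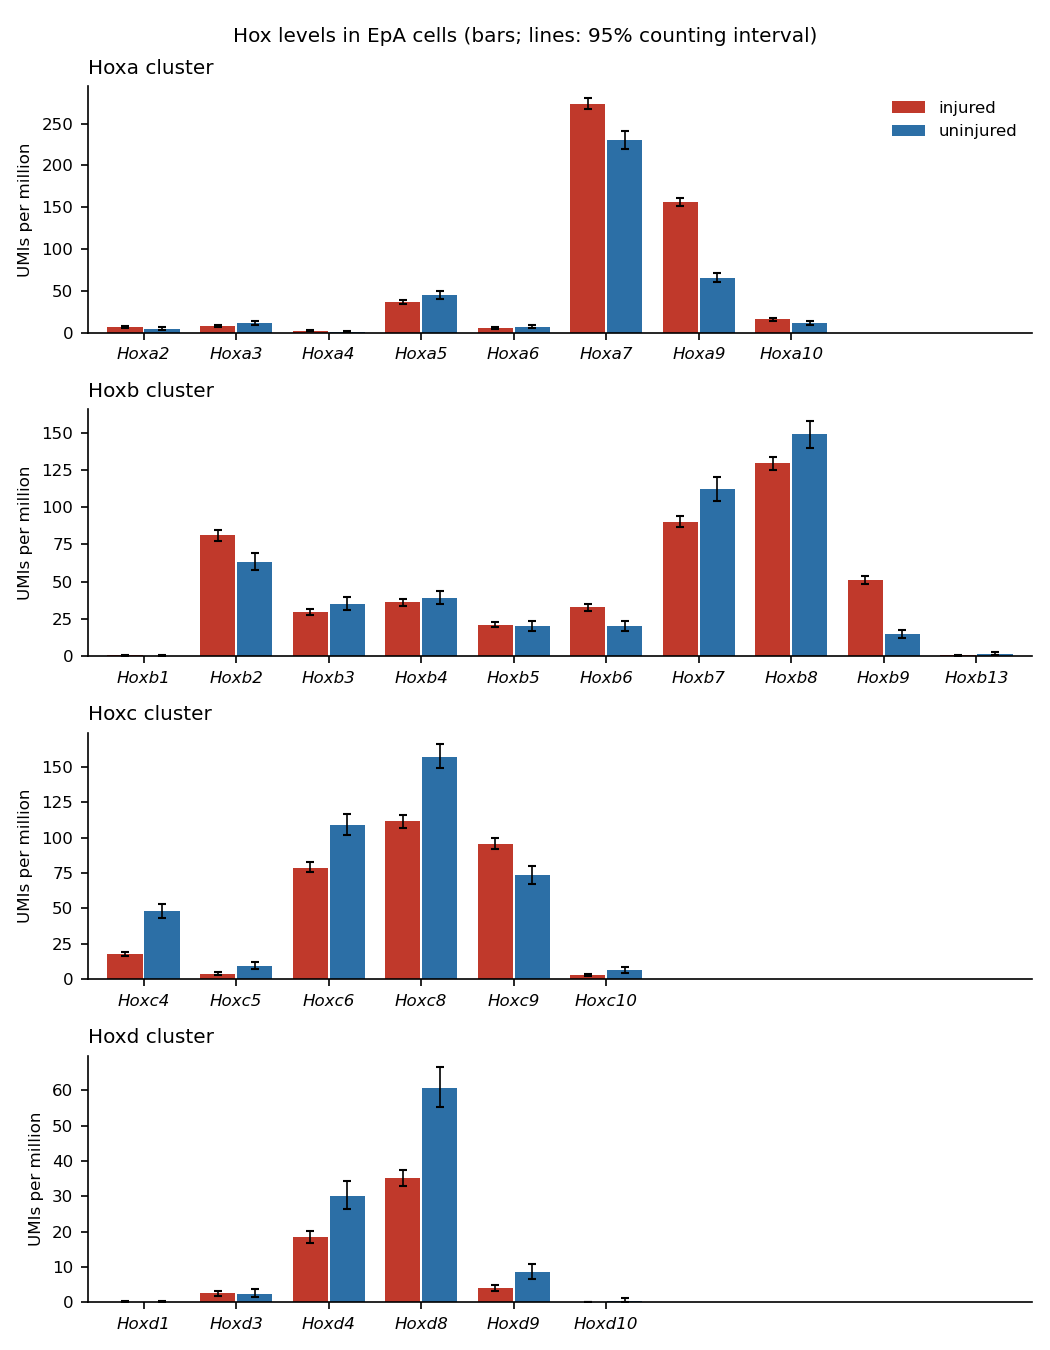
Level of 30 of the 31 Hox genes in EpA cells of the injured (red) and uninjured (blue) library, in CPM; bars give the level over all EpA cells of 1 library, lines the 95% counting interval, and each panel has its own axis. Hoxa7 is highest in both libraries at 274 and 230 CPM, and Hoxa9 and Hoxb9 stand higher in the injured library while Hoxc4, Hoxd4 and Hoxd8 stand lower.

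Most measured Hox genes differed by less than 2-fold between injured and uninjured EpA cells. Hoxb9 and Hoxa9 were higher in injured than in uninjured EpA cells, and Hoxc4, Hoxc5 and Hoxd9 were lower. With 1 library per condition, injury cannot be told apart from differences between animals or in the exact level of the segment. Neither was tested. A gene was counted as measured with a mean of at least 5 CPM over the compared sets, and as higher or lower past a 2-fold ratio. Of the 31 genes, 23 were measured, 2 were higher (10.9% of all 10527 measured genes were) and 3 were lower (11.3% of all were) in injured than in uninjured EpA cells. The other 18 lay between. The median log2 ratio of the 23 was -0.26, against -0.03 for all genes. Both counts are close to what the background shares give for 23 genes, so the number of Hox genes that shifted is not a result about the Hox genes. With every cell weighted alike Hoxc5 and Hoxd9 missed 2-fold, with log2 ratios of -0.66 and -0.81, and a floor of 10 CPM leaves out both, so Hoxc4 is then the single lower gene. Hoxd9 also missed 2-fold without the EpA cells of cluster 0, 1 or 5 (-0.92, -0.97 and -0.90), clusters that are described below.

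Both higher genes belong to group 9, which marks lower thoracic to lumbar levels. Hoxb9 had 50.9 CPM (48.1 to 53.7) in injured and 14.7 CPM (12.1 to 17.7) in uninjured EpA cells, 3.46-fold higher (2.85 to 4.23). Hoxa9 had 156 CPM (151 to 161) in injured and 65.9 CPM (60.3 to 71.9) in uninjured EpA cells, 2.37-fold higher (2.16 to 2.60). Their paralogue Hoxc9 went the same way by less, with 95.8 CPM (92.0 to 99.7) and 73.5 CPM (67.5 to 79.8). The last paralogue, Hoxd9, went the other way, with 4.03 CPM (3.29 to 4.89) in injured and 8.58 CPM (6.64 to 10.9) in uninjured EpA cells, 2.13-fold lower (1.54 to 2.93). The group as a whole had 307 CPM (300 to 314) in injured and 163 CPM (154 to 172) in uninjured EpA cells.

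The other lower genes are neighbours in the Hoxc cluster that mark neck levels. Hoxc4 had 17.7 CPM (16.1 to 19.4) in injured and 48.1 CPM (43.3 to 53.3) in uninjured EpA cells, 2.72-fold lower (2.36 to 3.13). Hoxc5, whose span overlaps several neighbours, had 3.87 CPM (3.15 to 4.72) in injured and 9.36 CPM (7.33 to 11.8) in uninjured EpA cells, 2.42-fold lower (1.76 to 3.31). Just short of the 2-fold rule were Hoxd8 with 35.1 CPM in injured and 60.6 CPM in uninjured EpA cells, Hoxb6 with 32.7 and 20 CPM, and Hoxd4 with 18.5 and 30.0 CPM. Hoxc10, a lumbar-level gene, missed the 5 CPM floor with 2.73 CPM in injured and 6.37 CPM in uninjured EpA cells. The trunk genes Hoxa7, Hoxb7, Hoxb8, Hoxc6 and Hoxc8 had ratios of 1.19, 0.807, 0.870, 0.723 and 0.709. Among the rostral genes, Hoxb2 had 81.1 and 63.3 CPM, Hoxb3 29.5 and 35.2 CPM, Hoxb4 36.2 and 39.1 CPM and Hoxb5 20.9 and 20 CPM in injured and uninjured EpA cells. Hoxa2 (6.52 and 4.94 CPM), Hoxa3 (8.10 and 11.4 CPM), Hoxa5 (36.3 and 44.7 CPM), Hoxa6 (5.77 and 6.89 CPM) and Hoxa10 (16 and 11.7 CPM) complete the measured genes. Hoxa4 (2.13 and 1.17 CPM), Hoxd3 (2.53 and 2.47 CPM) and Hoxd10 (0 and 0.520 CPM) were below the floor.

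By cluster, the listed Hoxa genes summed to 505 CPM (497 to 514) in injured and 377 CPM (364 to 391) in uninjured EpA cells. The Hoxb genes summed to 472 CPM (463 to 480) and 455 CPM (440 to 470). The Hoxc genes summed to 311 CPM (304 to 318) in injured and 404 CPM (390 to 418) in uninjured EpA cells, and the Hoxd genes to 60.4 CPM (57.4 to 63.5) and 102 CPM (95.2 to 110). The injured over uninjured ratio was thus above 1 for Hoxa (1.34) and below 1 for Hoxc (0.769) and Hoxd (0.591), which flips to 1.40 and 1.07 for Hoxc and Hoxd when UMIs per cell are taken without scaling. Injured EpA cells held more UMIs each, and the median of all genes stood 0.83 higher (log2) on that scale, with 8 Hox genes higher and 0 lower (40% and 1.63% of all genes were). On that scale 11 of the 14 measured genes with a ratio below 1 turn above 1, among them Hoxd4 and Hoxd8, while Hoxc4, Hoxc5 and Hoxd9 stay below. In sums of this kind, fewer cells with a transcript and less transcript per cell cannot be told apart.

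Within EpA the levels of Hoxb9, Hoxa9, Hoxd8 and Hoxd4 differed by cluster. Kept cells of both libraries were clustered jointly without any Hox gene or Hox cluster RNA, and EpA cells fell mostly into 6 clusters, 3 of which (0, 2 and 4) held many EpA cells of both libraries and 3 of which (1, 3 and 5) were almost all injured. No EpA cluster, left out in turn, moved the counts of higher or lower Hox genes beyond 1.5 times, though Hoxd9 lost its call without 3 of them, as given above. Clusters 0, 2 and 4 had all 8 ependymal markers above 100 CPM, cluster 1 had 7, led by C3 and Gfap, and cluster 3 had 2, led by Crym and Cnn1. These marker levels and leading genes are of all kept cells of a cluster, also those outside EpA. Cluster 5 has 130 kept cells, 122 of them EpA cells. Its leading genes include neutrophil granule genes (S100a9, Ngp, Elane) and cell division genes (Pbk, Prc1, Cdc20), and it stays unnamed. Which of its cells carry the neutrophil genes was not tested.

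Hoxb9 was highest in the injured clusters. It had 38.2, 61.7 and 75.9 CPM in injured EpA cells of clusters 1, 3 and 5. In clusters 0, 2 and 4 the injured EpA cells had 16.8, 15 and 15.8 CPM and the uninjured EpA cells 15.7, 12.5 and 14 CPM, with ratios of 1.07 (0.609 to 1.80), 1.20 (0.712 to 2.04) and 1.12 (0.558 to 2.20). These intervals include 1, and their upper limits lie below 2.85, the lower limit of the ratio over all EpA cells. Cells were grouped by expression, so injured cells of clusters 0, 2 and 4 are those that resembled uninjured cells. The ratios within these clusters therefore do not speak for the injured cells of clusters 1, 3 and 5.

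Hoxa9 had 168, 207 and 133 CPM in injured EpA cells of clusters 1, 3 and 5. In clusters 0, 2 and 4 its ratio of injured over uninjured EpA cells was 0.981 (0.763 to 1.25), 1.35 (1.10 to 1.66) and 2.5 (1.80 to 3.49). Hoxc4 was lower in the injured cells of each shared cluster, by less than 2-fold. It had 30.2, 27.5 and 29.5 CPM in injured EpA cells of clusters 0, 2 and 4, against 48.7, 43.7 and 52.6 CPM in uninjured EpA cells, with ratios of 0.620 (0.421 to 0.890), 0.628 (0.453 to 0.867) and 0.562 (0.359 to 0.858). In injured EpA cells of clusters 1, 3 and 5 it had 18.0, 13.8 and 14.2 CPM. The lower levels of Hoxc5 and Hoxd9 over all EpA cells did not hold within every shared cluster. Hoxc5 had 12.6, 9.16 and 5.91 CPM in injured EpA cells of clusters 0, 2 and 4, against 7.30, 13.8 and 8.18 CPM in uninjured EpA cells, with ratios of 1.72 (0.851 to 3.35), 0.662 (0.365 to 1.18) and 0.722 (0.227 to 2). In injured EpA cells of clusters 1, 3 and 5 it had 3.64, 2.15 and 2.26 CPM. Hoxd9 had 12.6, 6.66 and 3.94 CPM in injured EpA cells of clusters 0, 2 and 4, against 10.5, 8.03 and 5.26 CPM in uninjured EpA cells, with ratios of 1.19 (0.610 to 2.21), 0.829 (0.396 to 1.72) and 0.749 (0.169 to 2.68). In injured EpA cells of clusters 1, 3 and 5 it had 3.03, 4.16 and 2.41 CPM. For both genes the ratio is thus above 1 in cluster 0 and every interval includes 1. Hoxd8 had ratios of 0.741, 0.848 and 1.04 in clusters 0, 2 and 4 and fewer UMIs, 41.5, 27.3 and 25.3 CPM, in injured EpA cells of clusters 1, 3 and 5. Hoxd4 had ratios of 0.979, 0.792 and 1.23 in the shared clusters and 24.1, 14 and 11.4 CPM in the injured clusters. Hoxa7 peaked in cluster 3 at 362 CPM, and Hoxb8 was lowest in cluster 5 at 89.8 CPM.

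**Figure D2:**
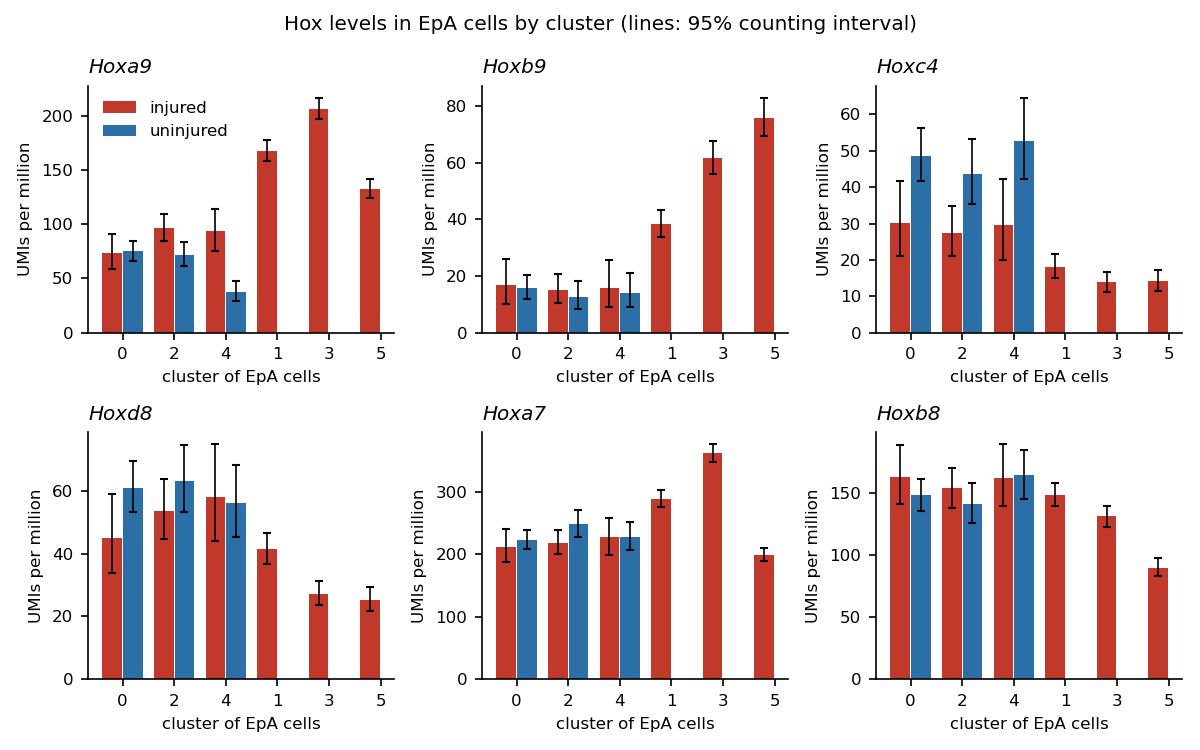
Levels of 6 Hox genes in EpA cells of the injured (red) and uninjured (blue) library by cluster, in CPM, for clusters with at least 20 EpA cells of that library; lines are 95% counting intervals and each panel has its own axis. Hoxb9 is near 15 CPM in clusters 0, 2 and 4 of both libraries and reaches 75.9 CPM in injured cluster 5, while Hoxc4 is lower in injured than in uninjured cells in clusters 0, 2 and 4.

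Injured EpA cells with few cilium transcripts had higher CPM of Hoxa9 and Hoxb9, and lower CPM of Hoxd4 and Hoxd8, than injured EpA cells with a cilium share in the uninjured range. Mature ependymal cells carry motile cilia, and the share of UMIs from 55 cilium genes was taken per cell after thinning to 2000 UMIs. Of 992 injured EpA cells, 547 lay below the 5th percentile of uninjured EpA cells (1.25% of UMIs), 445 lay within the uninjured range and 116 lay within 20% of the limit. The low-cilium cells were deeper, with a median of 28653 UMIs against 11576 in the injured cells within range, and the share is a range and not a cell type. In UMIs per cell the direction of the Hoxd genes turns, with 0.537 UMIs of Hoxd4 in low-cilium injured cells and 0.393 in injured cells within range, and 0.974 and 0.796 UMIs of Hoxd8. Hoxa9 (6.14 and 1.32 UMIs per cell) and Hoxb9 (2.14 and 0.265) stay higher in the low-cilium cells on that scale. Hoxb9 had 62.0 CPM in low-cilium injured cells, 18.3 CPM in injured cells within range and 14.4 CPM in uninjured cells within range. Hoxa9 had 178, 91.5 and 66.1 CPM in the same order, and Hoxa7 had 298, 205 and 233 CPM. Hoxc4 had 14.8, 25.9 and 47.9 CPM, so it was lower in both injured sets than in the uninjured cells. Hoxd8 had 28.3, 55.0 and 61.1 CPM, Hoxd4 15.6, 27.2 and 29.9 CPM and Hoxc8 102, 139 and 158 CPM, with ratios of injured over uninjured cells within range of 0.900 (0.781 to 1.04), 0.910 (0.742 to 1.12) and 0.878 (0.804 to 0.959). The same ratio was 1.38 (1.23 to 1.56) for Hoxa9 and 0.541 (0.448 to 0.653) for Hoxc4. Hoxc5 had 2.76, 7.14 and 9.37 CPM and Hoxd9 3.45, 5.75 and 8.96 CPM in the same order, with ratios of injured over uninjured cells within range of 0.763 (0.514 to 1.12) and 0.641 (0.417 to 0.974), both short of 2-fold. For Hoxb9 the low-cilium over within-range ratio was 3.38 (2.80 to 4.13), and the ratio of injured over uninjured cells within range was 1.27 (0.972 to 1.67).

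**Figure D3:**
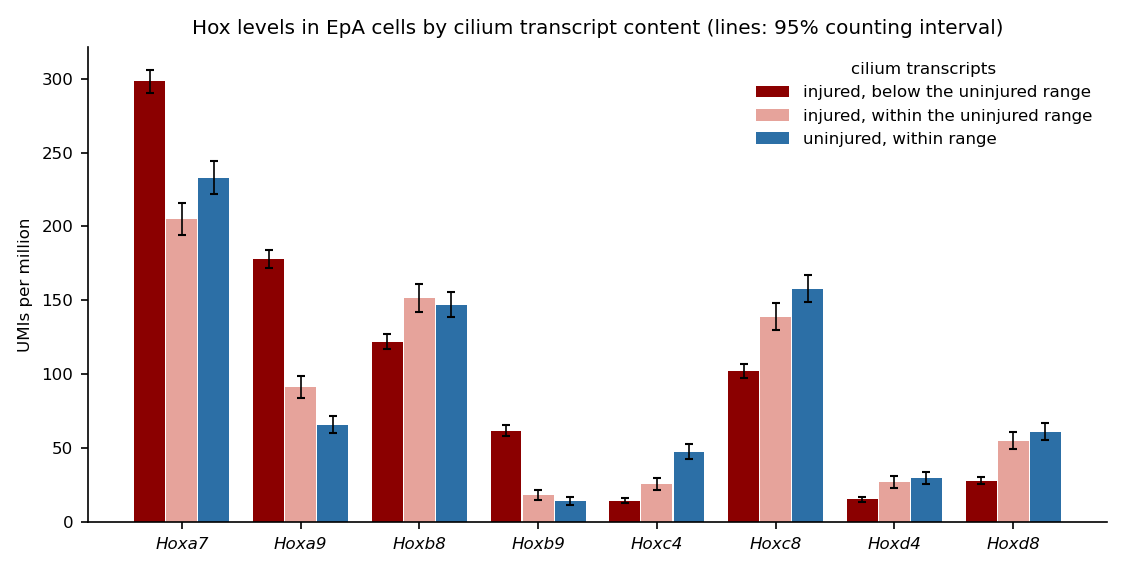
Levels of 8 Hox genes, in CPM, in injured EpA cells with cilium transcripts below the uninjured range (547 cells, dark red), injured EpA cells within it (445 cells, light red) and uninjured EpA cells within it (521 cells, blue); lines are 95% counting intervals. Hoxa9 and Hoxb9 are highest in the low-cilium injured cells, and Hoxc4 is highest in uninjured cells.

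Nearly every EpA cell carried Hox transcripts. At full depth 99.5% (98.8 to 99.8) of injured and 98.9% (97.7 to 99.6) of uninjured EpA cells had at least 1 Hox UMI (Clopper-Pearson intervals), with a median of 11 and 9 Hox genes per cell. Thinned to 2000 UMIs, which leaves out 12 injured and 8 uninjured EpA cells, the shares were 90.5% (88.5 to 92.3) and 93.2% (90.8 to 95.2), with a median of 2 Hox genes in each. Outside EpA the thinned shares were 32.7% of injured and 37.2% of uninjured cells. Microglia descend from the yolk sac and should lack a Hox code. The microglia-like cells were named from a list of microglia or macrophage markers, so macrophages may be among them. The thinned shares of the microglia-like cells were 11.5% (3 of 26 cells) and 3.33% (1 of 30 cells), with median depths before thinning of 21186.5 and 7171.5 UMIs. Per gene in thinned EpA cells, Hoxa7 was found in 36.7% of injured and 36.2% of uninjured cells, Hoxa9 in 20.9% and 11%, Hoxb9 in 6.75% and 2.93%, and Hoxc4 in 3.43% and 11.7%. At full depth these shares were 91.8% and 87.7% for Hoxa7, 73.1% and 41.3% for Hoxa9, 47.8% and 18.2% for Hoxb9, and 33.4% and 42.9% for Hoxc4.

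Set against the other kept cells of the same library, EpA cells had more Hox RNA, 1348 against 365 CPM (351 to 379) in the injured library and 1338 against 396 CPM (362 to 432) in the uninjured library. The authors chose the EpA set from these same profiles, so the comparison describes that choice. In the injured library 19 Hox genes were measured, 16 were higher in EpA cells (19.2% of all genes were) and 0 were lower (13.6% of all were). In the uninjured library 21 were measured, 16 were higher in EpA cells (18.9% of all were) and 0 were lower (26.3% of all were). Genes enter such a count mostly through the EpA level, so the count is a description. The median log2 ratio of the measured Hox genes was 1.93 in the injured and 1.59 in the uninjured library, against 0.11 and -0.14 for all genes.

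Among the measured genes, Hoxa10, Hoxa9, Hoxa7 and Hoxd8 led by ratio in the injured library and Hoxb8, Hoxd8 and Hoxc9 in the uninjured library. Below the floor, from 1 to 5 UMIs outside EpA, Hoxa2 had ratios of 11.4 (4.36 to 42.2) and 1.58 (0.570 to 6.11) in the injured and the uninjured library, and Hoxa6 had 8.05 (3.37 to 25.1) and 8.83 (1.52 to 355). In the injured library Hoxa10 had 16 CPM in EpA cells against 1.15 CPM outside, a ratio of 13.9 (7.01 to 32.5), Hoxa9 had 156 against 14.1 CPM (11.1, 9.08 to 13.7), Hoxa7 had 274 against 38.9 CPM (7.05, 6.24 to 7.99) and Hoxd8 had 35.1 against 5.60 CPM (6.27, 4.55 to 8.87). In the uninjured library Hoxb8 led with 149 CPM in EpA cells against 12.5 CPM outside (11.9, 7.31 to 20.9), followed by Hoxd8 (5.98, 3.46 to 11.3), Hoxc9 (5.89, 3.59 to 10.4), Hoxa9 (4.70, 2.94 to 7.99) and Hoxa7 (4.47, 3.50 to 5.81). Hoxb8 had 130 CPM in EpA cells and 47.5 CPM outside in the injured library, a ratio of 2.73 (2.44 to 3.06). The other higher genes had ratios of 2.65 (Hoxb6) to 5.39 (Hoxa5) in the injured library and 2.21 (Hoxa5) to 3.87 (Hoxb2) in the uninjured library. Among the latter, Hoxc5 had a ratio of 2.40 (0.982 to 7.62) from 5 UMIs outside, so its interval includes 1. Hoxd9, below the floor in this comparison too, had a ratio of 7.03 (2.66 to 26.3) in the injured library. In the uninjured library Hoxd9 had 66 UMIs in EpA cells and 0 outside, with a lower limit of the ratio of 2.90. Hoxd3 and Hoxb13, also below the floor, had UMIs in EpA cells of both libraries and 0 outside, where fewer UMIs were counted. The lower limit of the ratio was 4.64 for Hoxd3 in the injured library but 0.778 in the uninjured library, and 0.618 and 0.418 for Hoxb13, so the last 3 of these limits lie below 1 and the 0 outside does not separate the sets there. The genes within 2-fold were mostly Hoxb genes. Hoxb4 had ratios of 1.35 (1.15 to 1.59) in the injured and 1.57 (1.09 to 2.33) in the uninjured library, and Hoxb7 had 1.64 (1.47 to 1.83) and 2.93 (2.19 to 3.99). Hoxa3, Hoxb6 and Hoxc10 were within 2-fold in the uninjured library, with 0.815 (0.487 to 1.44), 1.60 (0.957 to 2.88) and 1.36 (0.583 to 3.89). Hoxb9 had 50.9 CPM in injured EpA cells against 34.3 CPM outside, and 14.7 CPM in uninjured EpA cells against 24.2 CPM outside, so its ratios of 1.48 (1.29 to 1.71) and 0.608 (0.405 to 0.936) lie on either side of 1. Summed Hoxd genes had 5.93 and 5.24 times the level outside in the injured and the uninjured library, Hoxa genes 7.45 and 3.43, Hoxc genes 4.09 and 3.34, and Hoxb genes 2.24 and 3.13. The outside sets differ in make-up. Endothelial-like cluster 6, described below, gave 81 of 224 injured and 5 of 156 uninjured outside cells. It held 4109076 of the 6969678 injured outside UMIs, and 209 of the 331 injured outside UMIs of Hoxb8. A ratio that differs between the libraries therefore need not reflect a difference in EpA cells.

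**Figure D4:**
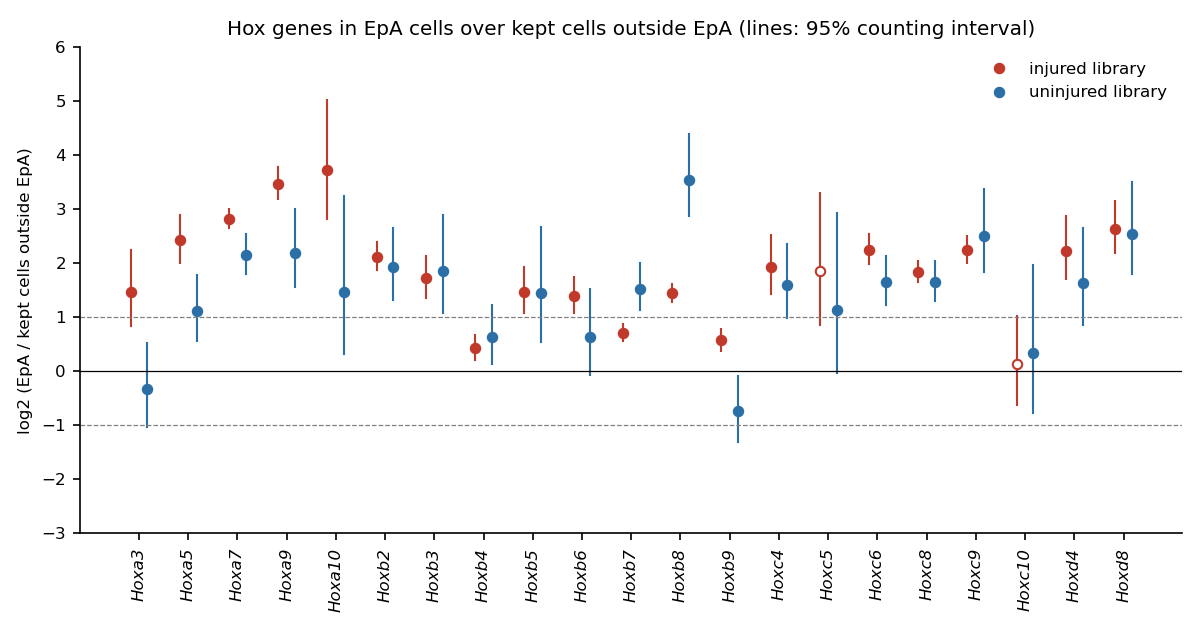
Log2 ratio of each Hox gene in EpA cells over kept cells outside EpA in the injured (red) and uninjured (blue) library, for the 21 genes measured in at least 1 of them; open points are below the 5 CPM floor in that library, lines are 95% counting intervals and dashed lines mark 2-fold. Hoxa10 and Hoxa9 stand at 3.72 and 3.46 in the injured library, Hoxb8 at 3.53 in the uninjured library, and Hoxb9 at 0.57 and -0.74.

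The cells outside EpA are a mixture, and their Hox codes differ by type. In endothelial-like cells most Hox UMIs came from the Hoxb cluster. In cluster 7, endothelial-like cells that also show haemoglobin genes, 89.0% of Hox UMIs came from the Hoxb cluster, led by Hoxb7 with 81.0 CPM in injured and 68.9 CPM in uninjured cells, Hoxb4 with 49.8 and 25.6 CPM and Hoxb9 with 45.7 and 37.4 CPM. Cluster 6, endothelial-like cells nearly all from the injured library, had 299 CPM of Hox, 68.8% of it Hoxb, but 1 cell held 259 of its 1229 injured Hox UMIs. Its 6 injured cells with UMIs of at least 3 ependymal markers held 566 of them. Against these cells EpA cells were higher for 16 of 18 measured Hox genes in injured cluster 6 (23.0% of all genes were higher), 15 of 19 in injured cluster 7 (23.9% of all were) and 16 of 19 in uninjured cluster 7 (24.7% of all were), where Hoxb9 was lower (23.1% of all were).

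Fibroblast-like and astrocyte-like cells came closer to EpA cells. Fibroblast-like cells of cluster 9 had 699 CPM of Hox in the injured and 1058 CPM in the uninjured library, with 47.9% of Hox UMIs from Hoxb genes, 36.9% from Hoxc genes and 14.6% from Hoxa genes in the injured library. In the uninjured library the shares were 29.2%, 33.0% and 34.6%, and Hoxa7 was highest with 177 CPM (120 to 252). Hoxd genes summed to 60.4 CPM in injured EpA cells and 4.35 CPM (1.41 to 10.2) in injured fibroblast-like cells, and to 102 CPM in uninjured EpA cells and 34.3 CPM (12.6 to 74.7) in uninjured fibroblast-like cells. In the injured library they had 110 CPM of Hoxc8, 93.1 CPM of Hoxb9 and 68.7 CPM of Hoxb2 but 2.61 CPM of Hoxa9, against 156 CPM of Hoxa9 in injured EpA cells. Relative to these cells, EpA cells were higher for 9 of 20 measured Hox genes in the injured library (25.5% of all genes were) and for 3 of 24 in the uninjured library (23.7% of all were), and lower for 1 and 6 (12.4% and 26.3% of all were). Of these fibroblast-like cells, 9 of 35 injured and 9 of 30 uninjured carry a barcode that is in both libraries. Without them Hox summed to 712 CPM in injured and 1050 CPM in uninjured cells, with EpA cells higher for 9 and 4 genes. Astrocyte-like cells of cluster 10, 30 of them uninjured, had 824 CPM of Hox with Hoxc8 at 166 CPM, Hoxc6 at 102 CPM, Hoxa7 at 93.9 CPM and Hoxa5 at 59.8 CPM. Uninjured EpA cells were higher than these for 4 of 21 measured genes (Hoxa7, Hoxb3, Hoxb7 and Hoxb8, with 24.2% of all genes higher) and lower for Hoxa3 (26.8% of all were lower). Those 30 cells hold 193 Hox UMIs in all, which sets the precision.

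Microglia-like cells of cluster 8 had 74.5 CPM of Hox in the injured and 12.4 CPM in the uninjured library. In the injured library 2 of 30 cells held 52 of the 55 Hox UMIs, and in the uninjured library 36 cells held 3 in all. Of the 30, 1 cell with 28 of them has UMIs of at least 3 ependymal markers. Cluster 11, unnamed cells led by Cd74, H2-Aa and Cd79a, held 4 Hox UMIs in 21 injured cells.

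**Figure D5:**
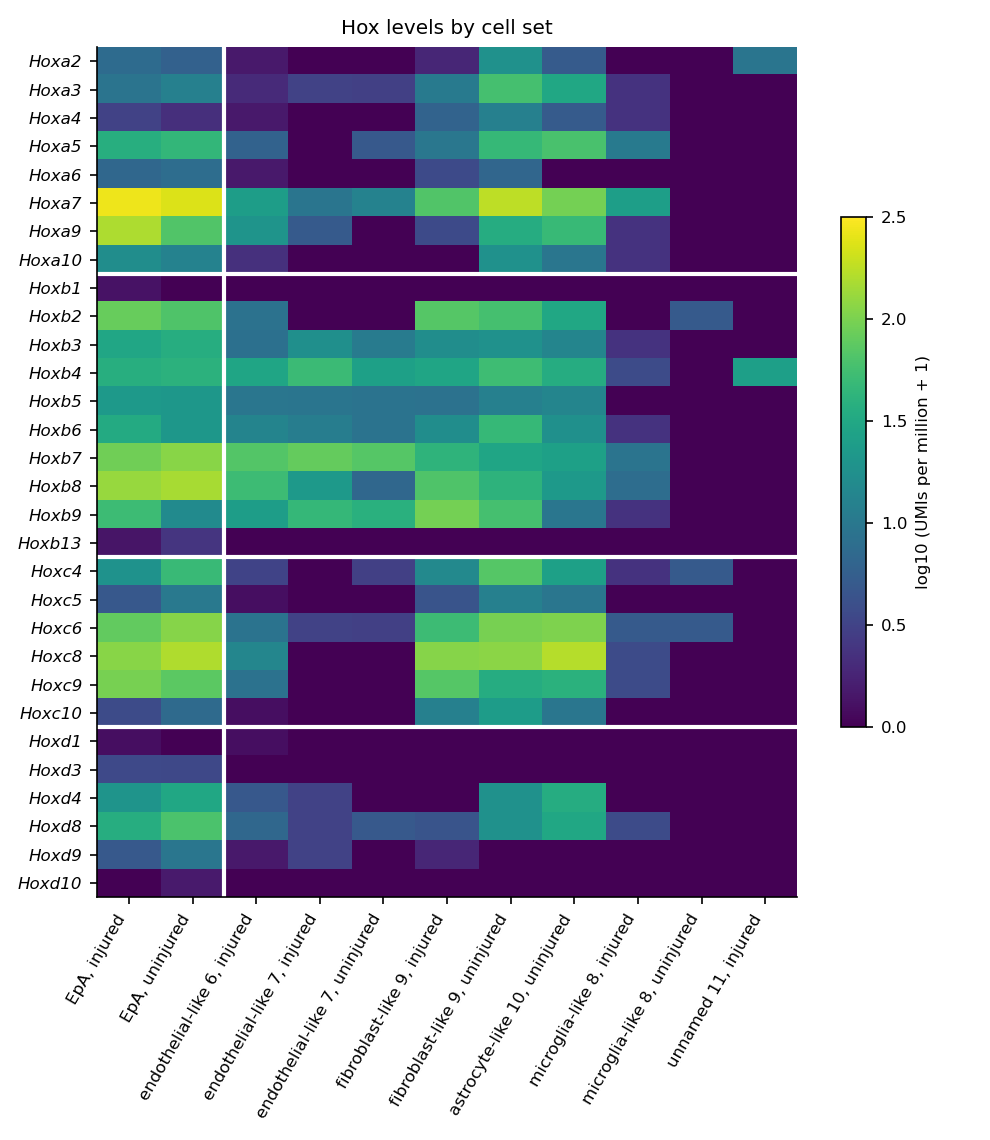
Level of 30 of the 31 Hox genes, as log10 of CPM plus 1 (colour), in EpA cells and in clusters of at least 20 kept cells outside EpA, by library; rows run through the Hoxa, Hoxb, Hoxc and Hoxd clusters, and a dark cell in a small set can be 0 or few UMIs. Endothelial-like columns are brightest in the Hoxb rows, while fibroblast-like and astrocyte-like columns reach 1058 and 824 CPM of Hox in the uninjured library.

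Other RNAs are transcribed from within or beside the Hox clusters, and 6 of 25 on a list of such RNAs were measured. The list also holds 1700042O10Rik, which is annotated far from the Hoxb cluster, at chr11:11868123-11885321, and was not measured. In injured over uninjured EpA cells 0 were higher (10.9% of all genes were) and 3 were lower (11.3% of all were). Hotairm1, an antisense RNA of the Hoxa cluster, had 36.8 CPM (34.4 to 39.2) in injured and 108 CPM (100 to 115) in uninjured EpA cells. Hoxd3os1, antisense to Hoxd3, Hoxd4 and Hoxd8, had 27.6 CPM (25.5 to 29.7) and 59.8 CPM (54.5 to 65.5), and Hoxb3os, antisense to Hoxb2 and Hoxb3, had 14.2 CPM (12.8 to 15.8) and 31.7 CPM (27.9 to 36.0). Hoxb5os (21.3 and 16.4 CPM), Hoxaas3 (17.2 and 14 CPM) and Gm53 (7.43 and 8.06 CPM) lay between. Hotairm1 stayed lower within the shared EpA clusters, with ratios of injured over uninjured EpA cells of 0.496 (0.372 to 0.652), 0.554 (0.445 to 0.688) and 0.443 (0.324 to 0.597) in clusters 0, 2 and 4, and 0.462 (0.404 to 0.526) in cells with a cilium share in the uninjured range. Hoxd3os1 had 0.635, 0.700 and 0.805 in the clusters and 0.707 (0.605 to 0.825) within the cilium range, and Hoxb3os had 0.672, 0.576 and 0.862 and 0.572 (0.456 to 0.715), so both were short of 2-fold there. All but Gm53 were higher in injured EpA cells than outside (19.2% of all genes were), where Hotairm1 had 14.5 CPM. In the uninjured library 4 of the 6 were higher in EpA cells (18.9% of all genes were), and Hoxb3os (1.94) and Gm53 (1.29) lay between.

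None of the cofactors that HOX proteins bind with passed 2-fold between injured and uninjured EpA cells. Of 10 measured, 0 were higher (10.9% of all genes were) and 0 lower (11.3% of all were) in injured than in uninjured EpA cells, with Pbxip1, which encodes a PBX-interacting protein, at 286 and 227 CPM, Meis2 at 217 and 229 CPM and Meis1 at 75.8 and 52.4 CPM. Against cells outside EpA, 5 of 9 measured cofactors were higher in the injured library (19.2% of all genes were) and 4 of 10 in the uninjured library (18.9% of all were). Meis2 had 217 CPM in EpA cells against 20.5 CPM outside in the injured library and 229 against 21.1 CPM in the uninjured library. Pbx4 had 52.1 against 7.17 CPM and 72.0 against 3.90 CPM, while Pbx2 and Pbx3 had ratios between 0.781 and 1.14 in both libraries.

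Among 21 measured Polycomb genes 1 was higher (10.9% of all genes were) and 3 were lower (11.3% of all were) in injured EpA cells, counts near what these shares give for 21 genes. Ezh2, the enzyme that places the silencing mark, had 70.5 CPM (67.3 to 73.9) in injured and 22 CPM (18.8 to 25.6) in uninjured EpA cells. Cbx7 (11.1 and 28.0 CPM), Cbx8 (11.7 and 25.4 CPM) and Phf1 (10.2 and 21.3 CPM) were lower. Within the cilium range of uninjured cells all 4 lay inside 2-fold, with ratios of injured over uninjured EpA cells of 1.01 (0.791 to 1.28) for Ezh2, 0.858 (0.691 to 1.06) for Cbx7, 0.706 (0.555 to 0.895) for Cbx8 and 0.770 (0.596 to 0.993) for Phf1. In clusters 0, 2 and 4 the ratios were 0.979, 0.933 and 0.722 for Ezh2, 0.997, 1.18 and 0.810 for Cbx7, 0.826, 0.811 and 0.728 for Cbx8, and 0.542, 1.12 and 0.488 for Phf1. The most abundant members were Rbbp4 (168 and 126 CPM) and Rbbp7 (159 and 111 CPM), histone-binding subunits. Of 14 measured Trithorax and demethylase genes 0 were higher (10.9% of all were) and 0 lower (11.3% of all were), with Psip1 (330 and 313 CPM) and Dpy30 (127 and 119 CPM) the most abundant. Of 7 measured retinoic acid genes 2 were higher (10.9% of all genes were) and 1 was lower (11.3% of all were). The receptor gene Rara was higher, with 13.6 CPM in injured and 5.20 CPM in uninjured EpA cells, and the receptor gene Rxrg was lower, with 7.75 and 21.8 CPM. Within the cilium range the ratio of injured over uninjured EpA cells was 2.26 (1.48 to 3.49) for Rara and 0.691 (0.531 to 0.896) for Rxrg. In clusters 0, 2 and 4 it was 1.08, 1.87 and 1.43 for Rara, where every interval includes 1, and 0.757, 0.956 and 0.682 for Rxrg, where every interval does too. Aldh1a2, which makes retinoic acid, had 0 UMIs in EpA cells of both libraries and 124 CPM in injured cells outside EpA.

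Genes of forebrain and midbrain identity were near 0. Of 17 on the list 9 were in the tables, and only Irx3 (64.6 and 63.6 CPM in injured and uninjured EpA cells) and Irx5 (94.2 and 124 CPM), which are also used in the cord, were measured. The highest of the other 7 was Barhl1, with 1.38 and 3.38 CPM. Of 11 caudal regulators 5 were in the tables and Gdf11 alone was measured, at 10.0 and 6.89 CPM. Gbx2, a gene of the anterior hindbrain and of ventral cord, had 5.81 CPM (4.91 to 6.83) in injured EpA cells and 0 UMIs in uninjured EpA cells, and its mean lies below the floor.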

How the data were processed

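Sorted tdTomato-positive cells of 1 injured and 1 uninjured cord library were measured with a 10x Genomics 3′ kit. Cell Ranger 3.0.1, Seurat and the build mm10 are named per the submitters' processing notes. The deposited values are raw UMI counts per gene and cell that the authors left unnormalised, with their own sets of kept and EpA cells. Counts of shared cells were identical across tables.

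Counts were summed per library and set and scaled to CPM. Genes with a mean CPM of 5 or more counted as measured and were called past 2-fold (log2 with 0.5 counts added). Intervals at 95% are exact Poisson for levels, conditional binomial for ratios and Clopper-Pearson for shares. A count of 0 was limited by 3 counts. Kept cells were clustered (scanpy 1.11.5, leidenalg 0.10.2; 2000 variable genes without Hox, 20 components, 15 neighbours, resolution 0.5). Clusters outside EpA took a type name from at least 3 listed markers above 100 CPM, and each named one has 1 or more of them among its top 10 genes. Scrublet marked 4 barcodes in each library, which does not show that doublets were absent, and they were removed in an alternative only. The size rule was tested on simulated data. TMM came from edgeR 4.0.16.

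The members and lists were chosen with earlier results of these data known. All Hox genes enter the counts and sums, but values of 1 of them, and of 2 genes of other lists, are not reported here. From other lists the called genes (up to 4 by ratio) and the 2 most abundant were to be named. Promoters and microRNAs are RefSeq GRCm38.p6 and 3′ UTRs GENCODE M21.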

Additional observations from a re-analysis of the deposited data

Results flagged for a closer look

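Hoxb9 and Hoxa3 drew attention because their EpA over outside ratios lie on opposite sides of 1 in the 2 libraries. The difference was not tested. For Hoxb9 the log2 ratio was 0.57 in the injured and -0.74 in the uninjured library. For Hoxa3 it was 1.47 in the injured and -0.33 in the uninjured library, where Hoxa3 had 11.4 CPM in EpA cells and 14 CPM outside. The interval of that uninjured Hoxa3 ratio, 0.487 to 1.44, includes 1. Endothelial-like cluster 6 had 0.973 CPM of Hoxa3 in the injured library. It gave 81 of 224 injured but 5 of 156 uninjured outside cells. Hoxa3 reached 57.2 CPM in uninjured fibroblast-like cells and 29.9 CPM in uninjured astrocyte-like cells, from 10 and 7 UMIs.

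Barcodes that the authors did not keep, which enter no comparison above, also held Hox transcripts. Hox genes made up 903 CPM (854 to 955) of the 338 injured barcodes not kept and 1100 CPM (1017 to 1188) of the 165 uninjured ones, above the 365 and 396 CPM of kept cells outside EpA. Their median mitochondrial share was 0.0933% in injured and 0.689% in uninjured barcodes, against 6.76% and 11.2% in EpA cells.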

How the results depend on the processing

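Leaving out a replicate was not possible with 1 library per condition. No paired analysis was possible because each condition has 1 library. For injured over uninjured EpA cells (2 higher, 3 lower), UMIs per cell without scaling gave 8 higher and 0 lower (median of all genes 0.83 on log2), weighting every cell alike or a floor of 10 CPM gave 1 lower (Hoxc4), no floor gave 5 higher and 6 lower, and a 1.5-fold rule gave 5 lower. The cause was not tested where the scale changed. Of the 14 genes with a ratio below 1, 11 turned above 1 per cell, while Hoxc4, Hoxc5 and Hoxd9 remained below 1. TMM, other totals, thinning, cells of higher quality, doublets, stray cells, shared barcodes, other barcode sets and leaving out any EpA cluster kept both counts within 1.5 times, but Hoxd9 missed 2-fold without EpA cluster 0, 1 or 5 (-0.92, -0.97 and -0.90). Leaving out shared barcodes, each EpA cluster, or outside cells with ependymal markers was chosen after seeing the data. For EpA over outside cells (16 higher, 0 lower in each library), no floor gave 1 lower in each library. In the uninjured library, weighting every cell alike gave 2 lower, the 1.5-fold rule 1 lower and endothelial-like cluster 7 alone 1 lower. Against fibroblast-like cells the counts were 9 higher and 1 lower in the injured and 3 and 6 in the uninjured library, and against astrocyte-like cells 4 and 1. Signs turned against fibroblast-like cells for Hoxa3 (-0.30, injured) and for Hoxa5 (-0.12), Hoxa10 (-0.77), Hoxc4 (-0.57) and Hoxc5 (-0.60, uninjured), and against astrocyte-like cells for Hoxa5 (-0.47), Hoxc5 (-0.18), Hoxc8 (-0.10) and Hoxd4 (-0.27). Uninjured Hoxc5 also turned with thinned cells (-0.74). Shares of EpA cells with a Hox UMI were 90.5% and 93.2% at 2000 UMIs in injured and uninjured cells, 98.8% and 99.1% at 4000 UMIs and 99.5% and 98.9% unthinned. The 10th in place of the 5th percentile kept all 6 cilium ratios computed within their intervals. It put 571 in place of 547 of the 992 injured cells below the limit. Nearly the same cells were thus compared, so this alternative could show little. The 507 Hox UMIs outside EpA in the uninjured library limit every ratio there.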
